A study of Mus musculus with 7 samples.

Results

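The transcriptome described here is that of wild-type haematopoietic stem cells sorted from the mouse fetal liver at embryonic day 14.5. It was measured on the 4 arrays whose titles name wild-type embryos, out of 7 arrays in the series; the other 3 came from embryos homozygous for TFIIAα-βnc, a form of the general transcription factor TFIIA, and were not analysed here. Parents heterozygous for TFIIAα-βnc were mated and the wild-type embryos were picked out by PCR, so the embryos described carried no mutant allele. Wild-type replicates 1 and 2 each held the cells of 1 embryo, replicate 3 those of 4 embryos and replicate 4 those of 3 embryos. Strain and embryo sex are not given in the labels. Cells without lineage antigens that carried CD150, c-Kit and Sca-1 were collected in 2 rounds of sorting, and amplified RNA of each sample was hybridised to 1 Affymetrix array. Samples are named biological replicates in the labels, and their number limits the precision of every value. A sorted population is still a mixture of cells, in which fewer cells of a type and less RNA per cell cannot be told apart.

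Haematopoietic stem cells renew themselves and give rise to all blood lineages. In the fetal liver they divide often and expand in number, whereas most adult stem cells of the bone marrow rest outside the cell cycle. A group of transcription factors that includes Tal1, Lmo2, Gata2 and Runx1 binds together at the control regions of stem cell genes, and fetal cells add regulators such as Hmga2 and Igf2bp proteins that adult cells largely lack.

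Levels are log2 values of the deposited intensities, and a gene's rank is the percentage of the 12393 measured genes with a lower signal on the same array. Because probe sets differ in brightness, ranks order signals, not numbers of transcripts, and a dim value of 1 gene's probe set does not show that its transcript was missing. As a yardstick for signal without transcription, a reference level was set within each array at the 95th percentile of 78 genes of tissues outside blood and liver, such as casein, crystallin and muscle genes. It lay at 4.54 to 4.69 over the arrays, near the array medians of 4.27 to 4.40. Of the 12393 genes, 5303, or 42.8%, lay above it on all 4 arrays, 5940 (47.9%) on none and 1150 on 1 to 3 arrays. Pairwise correlations over genes were 0.980 to 0.988 among replicates 2, 3 and 4 and 0.965 to 0.976 between replicate 1 and each of those. Replicate 1 stood apart in endothelial genes, whose mean level was 6.31 there and 4.14 to 4.32 on the other arrays. Several results, but not all, are given with and without replicate 1. The 3' minus 5' signal of actin was 2.92 and 2.62 on the single-embryo arrays and 1.93 and 2.12 on the pooled ones, and that of Gapdh was 1.41 and 0.99 against 0.71 and 0.91.

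The antigens that defined the sort were seen on every array. Kit, the receptor of stem cell factor, had levels of 7.61, 8.31, 8.66 and 9.06 in replicates 1 to 4 (8.41 ± 0.61, SD, n = 4; mean rank 92.1%). Slamf1, which encodes CD150, had levels of 6.22, 6.57, 6.12 and 6.50 (6.35 ± 0.22, SD, n = 4; mean rank 72.6%). Both lay above the reference level throughout; Kit was lowest in replicate 1 and Slamf1 varied little. These values come from the probe set of highest signal for each gene. The other Kit probe set averaged 3.15, and the other Slamf1 probe sets averaged 2.73 and 4.30, below the reference level. Ly6a, the gene of Sca-1, was not analysed here. Cd34, a sialomucin of progenitors, had levels of 7.57, 7.95, 8.23 and 8.43 (8.04 ± 0.37, SD, n = 4), and Hoxa9 and Lmo2, also used as stem cell markers, are given with their families. The data thus held 4 of the 5 markers chosen for these cells, all above the reference level on every array.

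Of 7 measured genes for the lineage antigens of the sort, 1 lay above the reference level on all 4 arrays, against 42.8% of all genes. That gene was Ptprc, with levels of 8.98, 9.61, 9.41 and 9.80, which encodes the pan-leukocyte protein CD45. The antibody to B220 sees only some forms of CD45, which a probe set for the gene does not separate. Cd3e had levels of 3.33, 3.07, 3.17 and 3.12, Cd4 3.25, 3.28, 3.15 and 2.92, and Cd8a 3.72, 3.42, 3.56 and 3.14. These T cell genes, together with Cd3d, Cd3g and Cd247, were below the reference level on every array. CD3, CD4 and CD8a were among the antigens used to remove cells.

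**Figure D1:**
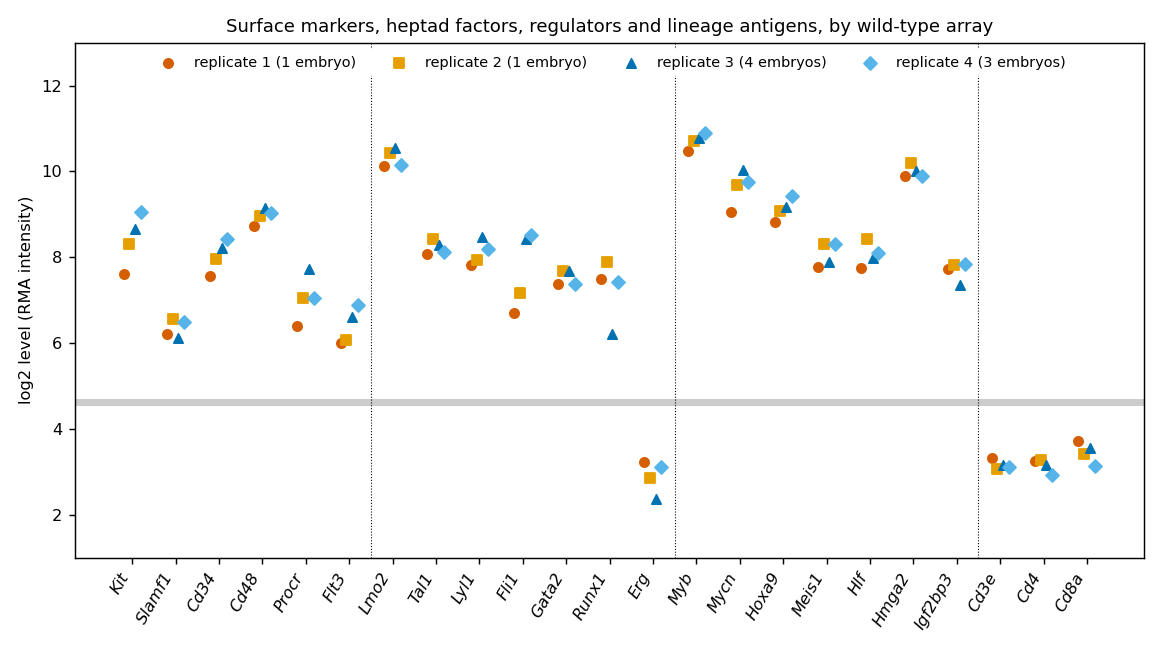
Log2 level of 23 genes (horizontal axis) on each of the 4 wild-type arrays (coloured symbols); the grey band spans the reference levels of 4.54 to 4.69. Apart from the heptad and the sort markers Kit and Slamf1, the genes were picked from longer lists. In these, 14 of 28 other surface markers and 34 of 49 regulators lay above the reference level on all arrays. Of the genes shown, Erg, Cd3e, Cd4 and Cd8a lie below the band and the rest above it.

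Other surface markers of stem and progenitor cells were mixed. Of 28 measured, 14 lay above the reference level on all 4 arrays, near the 42.8% of all genes, and 8 on none, with a median rank of 60.2%. Cd48, a ligand of CD244 that is used to separate progenitors from stem cells, had levels of 8.73, 8.96, 9.14 and 9.03. Procr, the endothelial protein C receptor found on stem cells, had levels of 6.39, 7.04, 7.72 and 7.06. The stem cell adhesion protein Esam stood at 6.92 ± 0.25 and the angiopoietin receptor Tek at 6.91 ± 0.42 (SD, n = 4). Flt3, a receptor of multipotent progenitors, had levels of 5.99, 6.08, 6.60 and 6.90. Markers of both stem cells and progenitors were therefore above the reference level in the same RNA. Thy1 at 3.70, Prom1 at 3.51 and Cd33 at 2.90 lay below it on every array, as did Itgam at 2.17 and Il7r at 2.14. Kdr and Cdh5, a receptor and an adhesion protein of endothelium, were above it in replicate 1 alone, at 7.39 and 6.53 there and at 3.89 or less elsewhere.

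The 7 factors known as the haematopoietic heptad ranked high. On all 4 arrays 6 of them exceeded the reference level, against 42.8% of all genes. The median rank of the 7 was 86.4%, or 89.3% without replicate 1. Lmo2, the LIM adaptor that bridges Tal1 to its partners, had a mean level of 10.31, a mean rank of 98.6% and an SD of 0.21. Tal1, a helix-loop-helix factor, had levels of 8.08, 8.42, 8.28 and 8.12, and its relative Lyl1 7.81, 7.94, 8.46 and 8.19. The zinc finger factor Gata2 had levels of 7.37, 7.67, 7.68 and 7.38. These 4 genes varied by less than 0.3 (SD) over the arrays. Runx1, which is required for the first stem cells to form, had levels of 7.49, 7.90, 6.21 and 7.42, with replicate 3 lowest. Dimmer Runx1 probe sets averaged 3.36 to 5.05 and differed in which array was lowest. Fli1, an ETS factor, had levels of 6.71, 7.17, 8.41 and 8.52, so that both pooled arrays lay above both single-embryo arrays, as in 18.1% of all genes; a dimmer Fli1 probe set read 5.72, 5.71, 4.17 and 4.92, the opposite order. Erg, the other ETS member, had levels of 3.23, 2.86, 2.38 and 3.12, below the reference level on every array.

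Of 49 other regulators of stem cell identity, 34 (69.4%) lay above the reference level on all arrays, against 42.8% of all genes. Another 8 of the 49 lay above it on none, and the list's median rank was 73.9%. Myb, which drives definitive haematopoiesis, had levels of 10.48, 10.70, 10.78 and 10.89 and a mean rank of 99.0%. Mycn, the Myc family member of fetal and progenitor cells, had levels of 9.06, 9.68, 10.03 and 9.74, and Myc 7.20, 7.06, 7.41 and 7.54. Sox4 followed at 9.63, Cbfb, the partner of Runx proteins, at 9.37, and Foxo3 at 8.22. The other Sox4 probe sets averaged 3.11 to 7.30. Meis1, a cofactor of Hox proteins, had levels of 7.76, 8.32, 7.88 and 8.30, and Hlf, a leucine zipper factor enriched in stem cells, 7.75, 8.43, 7.97 and 8.10. Neither varied by more than 0.29 (SD). Bcl11a at 7.75 ± 0.06 and Nkx2-3 at 6.24 ± 0.10 were among the steadiest (SD, n = 4). Spi1, the myeloid and lymphoid factor PU.1, had levels of 4.48, 4.77, 5.82 and 5.75 and lay above the reference level on 3 arrays. Mecom at 2.43, Ikzf1 at 2.49, Zbtb16 at 2.88 and Cebpa at 2.67 were below it on every array. Egr1, an immediate early gene, had levels of 5.90, 4.36, 3.79 and 3.44, above it in replicate 1 only, as was Klf2, at 5.07 there and 3.20 to 3.49 elsewhere.

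Hox genes encode homeodomain factors arranged in clusters, and those of the A cluster are used most by blood progenitors. Of 31 measured, 3 (9.68%) lay above the reference level on all 4 arrays, against 42.8% of all genes. These 3, Hoxa9, Hoxa5 and Hoxa7, belong to the A cluster. Hoxa9 had levels of 8.82, 9.08, 9.16 and 9.43 (9.12 ± 0.25, SD, n = 4), Hoxa5 6.25, 6.58, 6.19 and 6.27, and Hoxa7 5.13, 5.13, 5.45 and 4.71. Hoxa10 ranged widely, at 2.78, 4.17, 5.22 and 4.30, and exceeded the reference level on 1 array. Of 9 B cluster genes none was above it on all arrays; the highest, Hoxb4 and Hoxb2, both averaged 4.42 and each exceeded it once. The 6 C cluster genes averaged at most 3.76 and the 7 D cluster genes at most 2.51. Hoxc8 had the lowest level of the family, at 1.51.

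Among 13 genes known from fetal stem cells, 8 (61.5%) were above the reference level on all arrays, against 42.8% of all genes. Without replicate 1, 10 of the 13 were above it on the other 3 arrays, as were 5448 of the 12393 measured genes. Hmga2, a chromatin protein of fetal stem cells, had levels of 9.89, 10.19, 10.01 and 9.90, a mean rank of 98.2%. The RNA-binding protein Igf2bp3 had levels of 7.73, 7.82, 7.36 and 7.83, and Igf2bp1 3.65, 5.07, 4.99 and 5.31, lowest in replicate 1. The growth factor Igf2 stood at 6.96 ± 0.37 (SD, n = 4). The transcription factor Arid3a stood at 5.12. Sox17, which fetal stem cells share with endothelium, had levels of 6.13, 2.58, 2.21 and 1.92, so that it lay above the reference level in replicate 1 alone. The zinc finger gene Plag1 averaged 1.99 and was below it everywhere, while Plagl1 had levels of 8.78, 6.55, 6.71 and 6.99.

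Imprinted genes, which are transcribed from the allele of 1 parent and many of which set growth, were spread over the whole range. Of 31 measured, 12 (38.7%) lay above the reference level on all 4 arrays, near the 42.8% of all genes, and 14 on none, with a median rank of 56.2%, or 43.0% without replicate 1. Gnas, a G protein subunit, had a mean level of 9.94, the growth inhibitor Grb10 8.18 and the growth suppressor Ndn 8.17. The cell cycle inhibitor Cdkn1c had levels of 7.28, 7.06, 6.41 and 6.33, and the noncoding RNA Meg3 7.62, 7.42, 6.56 and 6.10; in both, the single-embryo arrays lay above the pooled ones, as in 11 of the 31 listed genes and 21.7% of all genes; the opposite order was seen in 4 of the 31. Igf2r, the receptor that clears Igf2, had levels of 6.33, 6.55, 4.59 and 4.45, the same order with a wider gap, and Dlk1 ran the other way at 4.14, 4.66, 5.68 and 5.84. Mest had levels of 8.97, 3.34, 4.00 and 3.60. It exceeded the reference level in replicate 1 alone. Peg10 at 2.20, Nnat at 2.20 and Zim1 at 1.81 were below the reference level throughout.

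Receptors for cytokines and growth signals formed a list of 55 measured genes, of which 19 (34.5%) lay above the reference level on all arrays, against 42.8% of all genes, and 25 on none. Ramp1 had levels of 8.57, 8.67, 8.84 and 9.001 and Calcrl 7.55, 7.51, 8.09 and 8.54; their proteins combine into the receptor of the neuropeptide CGRP. The receptors of TGF-beta, Tgfbr1 at 7.46 and Tgfbr2 at 7.54, the TNF receptor Tnfrsf1a at 7.60 and the interferon gamma receptor Ifngr1 at 6.90 were also above the reference level on every array. So were Notch1 at 6.86, Notch2 at 6.96 and the Hedgehog receptor Ptch1 at 6.45. The other Notch1 probe set averaged 4.74, near the reference level. Among receptors of lineage cytokines, Csf3r for granulocytes had levels of 5.25, 5.60, 5.96 and 6.09. Epor, for erythroid cells, had levels of 5.06, 4.25, 3.88 and 4.47 and exceeded the reference level in replicate 1 only. The lymphoid receptors Il7r, Il2ra and Ccr7 averaged 2.14, 2.09 and 2.27. The receptor Lifr read 4.58 in replicate 1 and 2.22 to 2.53 elsewhere, below the reference level on all arrays.

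Programmes of the blood lineages were above the reference level in part. Erythroid genes above the reference level on all 4 arrays numbered 12 of 36, granulocyte and monocyte genes 19 of 45, megakaryocyte genes 14 of 31, lymphoid genes 11 of 47, and mast cell, basophil and eosinophil genes 3 of 19, against 42.8% of all genes. Their median ranks were 43.3%, 49.2%, 56.6%, 24.6% and 15.5%. Without replicate 1 these ranks were 40.6%, 49.7%, 57.3%, 25.4% and 17.0%. No test of these differences was made.

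Among erythroid genes, Car2, a carbonic anhydrase, had levels of 10.004, 10.31, 10.51 and 10.37, and Nfe2, a factor shared with megakaryocytes, 9.09, 9.28, 9.69 and 9.45. Gata1 had levels of 5.87, 5.58, 5.83 and 5.83 and Klf1 6.30, 5.28, 4.43 and 5.41. The haem enzymes Urod at 6.59, Uros at 6.13, Alad at 6.09 and Fech at 6.12 were above the reference level on every array. The haem enzyme of red cells, Alas2, averaged 2.78, and the adult globin genes Hba-a1 and Hbb-b2 averaged 2.30 and 2.74. The membrane proteins Slc4a1 and Epb42 averaged 2.39 and 1.93. All of these were below the reference level on every array. Probe sets naming several genes were left out, so globin transcripts read only by such probe sets are not covered. The embryonic globin Hbb-y had levels of 5.43, 2.96, 2.24 and 3.97. It was above the reference level in replicate 1 alone.

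Among granulocyte and monocyte genes, Mpo, the peroxidase of primary granules, had levels of 8.47, 8.31, 9.21 and 9.33, and the protease Prtn3 8.11, 8.71, 9.34 and 9.43. In these 2 genes both pooled arrays lay above both single-embryo arrays, as in 12 of the 45 listed genes and 18.1% of all genes; in 8 of the 45, against 21.7% of all genes, both lay below. The lysozyme genes Lyz1 at 9.29 and Lyz2 at 8.40 and the chaperone Calr at 9.60 were high as well. Genes of later granules were dim: Ltf averaged 2.87, Camp 2.03, Ngp 1.96 and Lcn2 1.79, and S100a8 and S100a9 2.16 and 2.18. Elane and Ctsg, proteases that share the primary granules with Mpo, averaged 2.92 and 2.49, below the reference level on every array.

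Megakaryocyte genes included Rap1b, a GTPase of platelet activation, at 10.04, the thrombin receptor F2r at 8.72 and Pf4, a platelet chemokine, at 6.97, 6.11, 5.25 and 6.004. Itga2b, which encodes CD41, had levels of 5.66, 5.34, 4.54 and 5.44, whereas its partner Itgb3 averaged 2.95. Vwf had levels of 4.54, 4.61, 4.83 and 4.27, around the reference level. Clec1b, a platelet receptor, had levels of 6.39, 2.81, 2.37 and 2.51. Only replicate 1 was above the reference level.

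In the lymphoid list, Ltb at 7.23, Satb1 at 6.93 and Cd79b at 6.44 were above the reference level on every array. The recombinase genes Rag1 and Rag2 averaged 2.07 and 2.55, the B cell factors Pax5 and Ebf1 2.59 and 2.15, and the terminal transferase Dntt 2.81, below it on every array. Mast cell and basophil genes above it were Srgn, the proteoglycan core of granules, at 11.16, 11.40, 11.42 and 11.52, Gata2, and the carboxypeptidase Cpa3 at 6.96, 6.35, 6.46 and 6.89. The mast cell proteases Mcpt4 and Cma1 averaged 2.20 and 2.15.

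**Figure D2:**
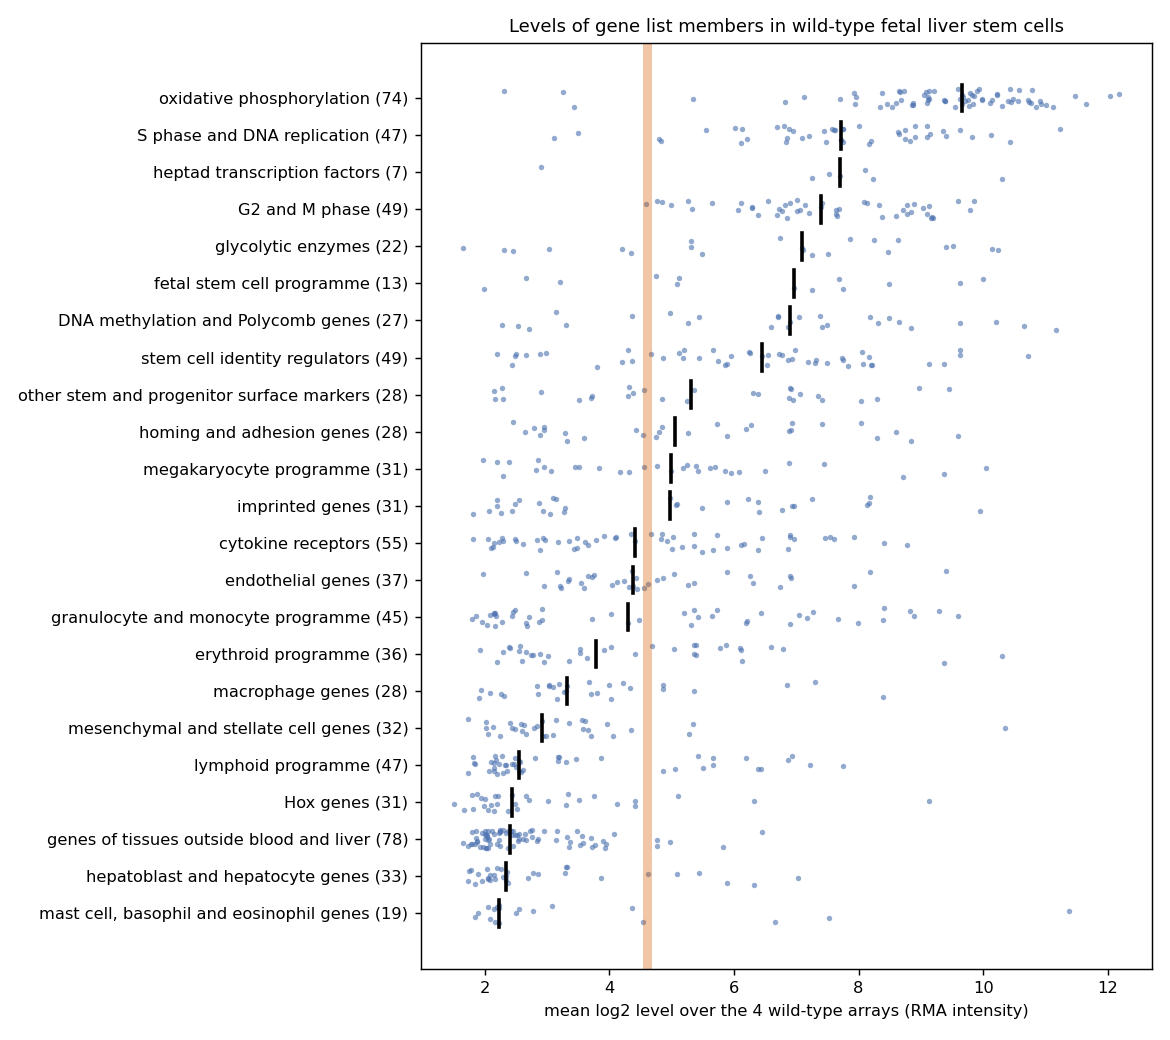
Mean log2 level over the 4 wild-type arrays (horizontal axis) of each measured member of 23 gene lists, with the number measured in brackets; black bars mark the list medians and the orange band the reference levels of 4.54 to 4.69. Cell cycle, heptad and oxidative phosphorylation genes lie mostly right of the band, and Hox, lymphoid, hepatic and mast cell genes mostly left of it.

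Cell cycle genes were among the highest and steadiest lists. Of 47 genes of S phase and DNA replication, 44 lay above the reference level on all arrays, with a median rank of 87.6%. Of 49 genes of G2 and M phase 46 did, with a median rank of 84.5%. The share over all genes was 42.8%. No gene of either list had an SD over 1. Pcna, the sliding clamp of DNA polymerases, had levels of 10.97, 11.32, 11.32 and 11.33, and the helicase subunit Mcm7 10.25, 10.46, 10.39 and 10.62. Cdt1, which loads that helicase, had levels of 10.33, 10.28, 10.28 and 9.59, with replicate 4 lowest. In G2 and M phase, the condensin subunit Smc4 averaged 9.85, the spindle checkpoint protein Bub3 9.80 and the proliferation antigen Mki67 9.60, with levels of 9.76, 9.49, 9.45 and 9.71. Cdk1, the mitotic kinase, had levels of 9.19, 9.16, 9.23 and 8.82. The 3 S phase genes that did not pass on all arrays were Tyms at 3.50 and E2f3 at 3.12, dim on every array, and E2f1, at 5.18, 4.78, 4.30 and 5.08. The 3 of G2 and M phase were Foxm1, a factor that activates mitotic genes, at 5.07, 4.98, 5.26 and 4.64, the kinase Nek2 at 5.20, 4.74, 4.60 and 4.54, and Mybl2 at 3.90, 4.32, 5.53 and 4.62, each above the reference level on 1 to 3 arrays.

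Of 8 G1 cyclins and their kinases, 7 exceeded the reference level on all 4 arrays, against 42.8% of all genes. Ccnd2 had levels of 8.54, 8.88, 9.16 and 8.88, Ccnd3 6.75, 6.92, 7.23 and 7.04, and Ccnd1 6.59, 6.67, 6.59 and 6.68. Their partner kinase Cdk4 had levels of 8.76, 8.88, 9.89 and 9.50, while Cdk6 averaged 2.43 and was below the reference level on every array. Of the inhibitors that restrain these kinases, 2 of 7 (28.6%) were above it on all arrays, Cdkn2d at 6.90 and Cdkn1c at 6.77. Cdkn1b had levels of 4.82, 4.80, 4.43 and 5.38. Cdkn1a averaged 3.94, Cdkn2c 3.80, Cdkn2b 2.12 and Cdkn2a, which encodes p16 and p19, 2.03, all below the reference level on every array.

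Because the cell cycle lists were high together, their promoters were read for short sequences known from cell cycle genes, in windows from 250 bases before to 50 bases after each RefSeq start. The motifs were TTCCCGC, a form of the E2F site, and CCAAT, the NF-Y box, both searched on both strands; they can overlap by 1 base. The promoters of 2 S phase genes and 3 genes of G2 and M phase, chosen to show a match, give an example of where these letters stand, as the 100 bases before the start, with capitals at each match to either motif on either strand (RefSeq, GRCm38.p6). Prim1, the primase subunit, lies at chr10:128015115-128015214 (+) and Rrm1, the ribonucleotide reductase subunit, at chr7:102441595-102441694 (+). Ube2c, a ubiquitin carrier of the anaphase complex, lies at chr2:164769829-164769928 (+), Top2a, the topoisomerase, at chr11:99024190-99024289 (-), and Ccnb2, a mitotic cyclin, at chr9:70421555-70421654 (-).
Prim1: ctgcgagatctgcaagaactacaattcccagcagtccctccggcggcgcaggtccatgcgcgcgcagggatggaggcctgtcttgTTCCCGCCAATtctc
Rrm1: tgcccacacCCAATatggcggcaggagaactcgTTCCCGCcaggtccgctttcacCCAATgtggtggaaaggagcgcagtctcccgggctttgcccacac
Ube2c: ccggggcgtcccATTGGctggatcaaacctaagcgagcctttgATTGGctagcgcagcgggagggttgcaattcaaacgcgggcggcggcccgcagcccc
Top2a: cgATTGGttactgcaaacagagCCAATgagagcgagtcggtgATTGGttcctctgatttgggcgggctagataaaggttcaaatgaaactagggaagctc
Ccnb2: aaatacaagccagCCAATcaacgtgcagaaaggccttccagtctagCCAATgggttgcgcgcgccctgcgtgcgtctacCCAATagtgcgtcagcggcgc

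The TTCCCGC match began 15 bases before the start in Prim1 and 67 bases before it in Rrm1. CCAAT occurred 3 times in the printed bases of Top2a and of Ccnb2, 2 times in those of Ube2c and of Rrm1, and 1 time in Prim1, where its first base is the last of the TTCCCGC match. The mean levels of these genes were 8.82 for Prim1, 8.74 for Rrm1, 9.19 for Ube2c, 9.18 for Top2a and 8.78 for Ccnb2. Over the lists, 15 of the 40 S phase genes with a promoter held TTCCCGC (37.5%), against 1 of 41 G2 and M phase genes (2.44%), 8.45% of the 9882 measured genes with a promoter and 5.29% of all 27025 genes in the RefSeq promoter table. CCAAT was in 25 of the 40 (62.5%) and in 30 of the 41 (73.2%), against 42.3% of the measured genes and 41.1% of all. A match describes the letters only, shows no binding, and has no test here.

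Promoters of genes above the reference level were also read for CpG. The ratio of observed to expected CpG exceeded 0.6 in 80.1% of the 4420 genes above the reference level on all arrays that had a promoter, against 59.7% of the measured genes and 35.5% of all genes in the table. CCGGAAG, the letters of an ETS site searched on both strands, was found in 25.3% of them against 16.4% of the measured genes and 9.93% of all. These letters themselves hold a CpG, so their share was not separated from CpG content. The 4420 genes are also part of the measured genes. TATAAA between 40 and 20 bases before the start, read on the forward strand only, was found in 1.11% of the 4420 against 3.10% of the measured genes and 2.41% of all. Only 79.7% of measured genes had a promoter, so their shares are a description. None of the S phase and none of the G2 and M phase promoters held it. Vim, the intermediate filament gene with levels of 10.38, 10.001, 10.69 and 10.35, was an exception chosen after its match was seen, at chr2:13574211-13574310 (+), with the match 32 bases before the start in capitals.
Vim: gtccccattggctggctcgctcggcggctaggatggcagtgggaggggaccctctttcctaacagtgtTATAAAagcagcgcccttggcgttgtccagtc

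The highest signals came from the translation machinery. Of the 25 genes of highest mean level, 21 encode proteins of the cytosolic ribosome, led by Rps29 with levels of 13.48, 13.31, 13.52 and 13.69. The remaining 4 were Tpt1 at 13.39, the elongation factor Eef1a1 at 13.15, the poly(A) binding protein Pabpc1 at 12.58 and Tmsb10, which sequesters actin, at 12.55. The largest SD among these 25 was 0.42, for Rplp0.

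Of 74 measured subunits of the respiratory chain and ATP synthase, 70 lay above the reference level on all arrays, against 42.8% of all genes. The list's median rank was 97.5%. Uqcrb, of complex III, had levels of 12.40, 12.41, 11.84 and 12.07, and Cox6a1, of cytochrome oxidase, 12.30, 12.12, 11.75 and 11.99. The subunits below it on every array were 3 forms known from muscle or lung: Cox6a2 at 3.44, Cox4i2 at 3.26 and Cox7a1 at 2.32. The general forms of the same subunits stood at 12.04 for Cox6a1, 10.72 for Cox4i1 and 11.01 for Cox7a2, on other probe sets, so the levels are given side by side only. Cox7c read 5.82, 5.77, 4.47 and 5.31 and passed on 3 arrays.

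Glycolytic enzymes and transporters were above the reference level on all arrays in 16 of 22 cases, against 42.8% of all genes. The list's median rank was 81.5%. Pgk1 averaged 10.24 and Ldha, the lactate dehydrogenase form favoured in glycolytic cells, had levels of 10.16, 10.11, 10.10 and 10.21. Ldhb stood at 7.09, the glucose transporters Slc2a1 and Slc2a3 at 8.46 and 8.24, and the hexokinases Hk1 and Hk2 at 7.52 and 7.25. Pdk1, which inhibits pyruvate dehydrogenase, averaged 7.10, while Pdk2 averaged 2.32. Pdk3 had levels of 5.14, 6.92, 7.46 and 7.47, lowest in replicate 1 and with an SD of 1.10. Eno2 and Eno3, enolases of nerve and muscle, averaged 1.66 and 3.03.

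Spread over the arrays was small for most genes. The median SD was 0.26 over all genes and 0.23 over those above the reference level on all arrays, of which 93.0% had an SD under 0.5. With genes split by mean level into 5 classes of equal size, the median SD was 0.22, 0.29, 0.33, 0.26 and 0.21, from the dimmest to the brightest class, widest in the middle one. An SD over 1 was found for 137 genes, 1.11% of all. Replicate 1 was the array farthest from the others in 112 of these, and the higher one in 106. Without it, 37 genes had an SD over 1, of which 22 were among the 137.

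The endothelial list held 18 of its 37 members with an SD over 1, and in all 18 replicate 1 was farthest. Lyve1, a hyaluronan receptor of liver sinusoids and lymphatics, had levels of 9.73, 2.91, 3.65 and 2.78, and the scavenger receptor Stab2 6.99, 2.23, 2.68 and 2.27. Mrc1, a mannose receptor of sinusoids and macrophages, had levels of 9.03, 4.01, 3.20 and 3.19, and the ligand Bmp2 7.26, 1.96, 1.97 and 2.21. In each of these replicate 1 was the only array above the reference level. Fabp4, Cd36, Plpp3, Aplnr, Cavin2 and Sparc, outside that list or shared with other cells, were among the 12 genes of largest SD and were highest in replicate 1, with 6.94 to 9.28 there. The share of all genes that were highest in replicate 1 was not counted. Replicate 1 was the highest array in 30 of the 37 members, beside 24 of 36 erythroid, 20 of 33 hepatic and 5 of 28 macrophage genes. In other lists it was the highest in 22 of 47 lymphoid, 15 of 31 Hox and 26 of 78 outside-tissue genes. It was so in 10 of 47 S phase and 9 of 45 granulocyte and monocyte genes. Without the share over all genes, no count can be called high or low. Replicate 1 was also the highest in 7 of the 11 endothelial members that lay above the reference level on every array. Among these 11, Tek had levels of 7.47, 6.86, 6.44 and 6.86, Esam 7.29, 6.76, 6.76 and 6.86 and Egfl7 8.49, 8.04, 8.25 and 7.97, all highest in replicate 1. Adgrl4, with 9.23, 9.62, 9.10 and 9.64, and Emcn, with 6.47, 6.53, 7.33 and 6.64, were not. The list's median rank was 51.0%, or 41.7% without replicate 1, and 11 members lay above the reference level on all arrays either way (29.7%, against 42.8% of all genes). Endothelial RNA in replicate 1 moved with these results, and its part in them was not tested.

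**Figure D3:**
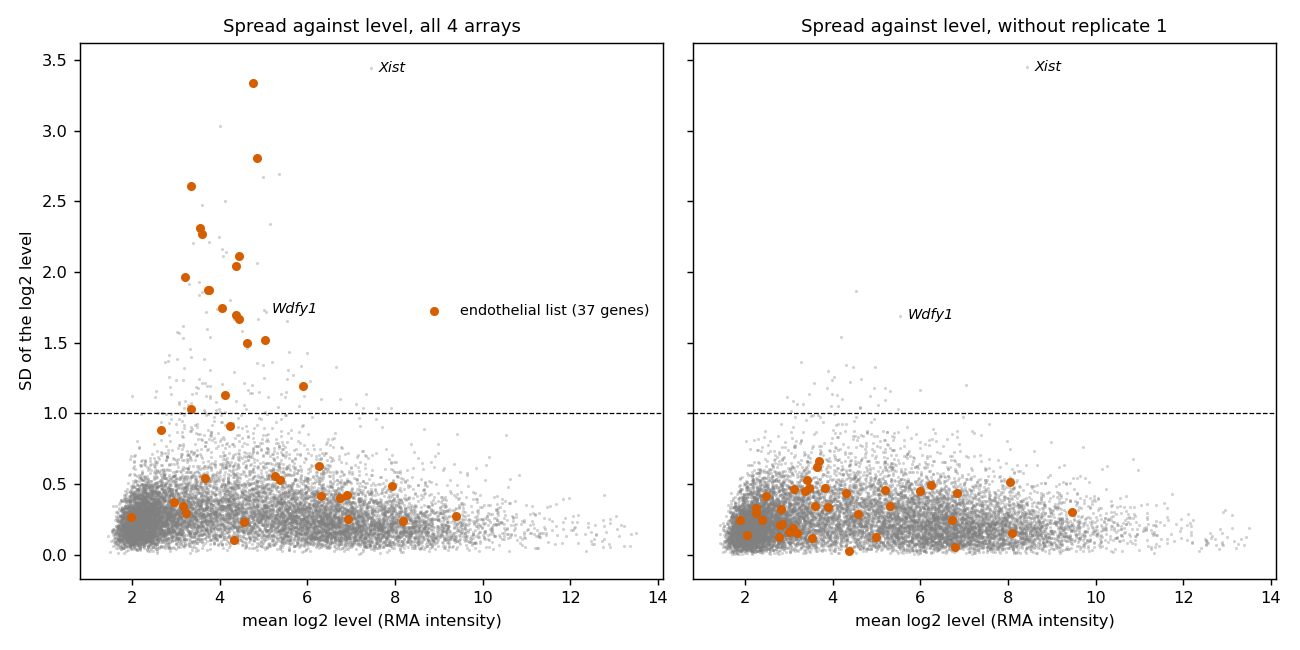
SD of the log2 level (vertical axis) against the mean log2 level (horizontal axis) of each of 12393 genes, over all 4 wild-type arrays (left) and without replicate 1 (right); the 37 endothelial genes are orange and the dashed line marks an SD of 1. On the left 18 endothelial genes lie above the line and on the right none does.

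Genes of other cell types that liver cells could bring were lower. Over all genes, the share above the reference level on all arrays was 42.8%. Of 33 hepatoblast and hepatocyte genes, 3 were above the reference level on all arrays: Apoe, which blood cells also make, at 7.03, Krt18 at 6.33 and Hnf4a at 5.89. The defining hepatic products Alb, with levels of 6.12, 2.74, 1.84 and 2.52, and Afp, with 6.58, 4.32, 3.05 and 4.50, exceeded it in replicate 1 alone. The list means were 3.27 in replicate 1 and 2.86 to 2.91 on the other arrays. Of 28 macrophage genes 3 exceeded the reference level on all arrays, Lyz2, Ctsd and Ctsb. The list means were 4.13 and 4.25 in the single-embryo replicates and 3.28 and 3.63 in the pooled ones. Pooled arrays lay wholly below the single-embryo ones in 13 of the 28, against 21.7% of all genes. They lay wholly above in 2 of the 28, against 18.1% of all genes. Slc40a1, the iron exporter of macrophages, had levels of 5.87, 6.26, 2.55 and 4.78 and Cd5l 4.78, 5.88, 2.88 and 3.77; replicate 3 was lowest in both. Adgre1, which encodes F4/80, and Vsig4 were below the reference level on every array, at 3.81 and 1.95. Among 32 mesenchymal genes, Vim alone was above it on all arrays, and the collagen genes Col1a1 and Col3a1 averaged 2.49 and 2.93. In 13 of the 32 the pooled arrays lay wholly below the single-embryo ones, and in 3 wholly above. The part of these cells in the results was not tested.

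**Figure D4:**
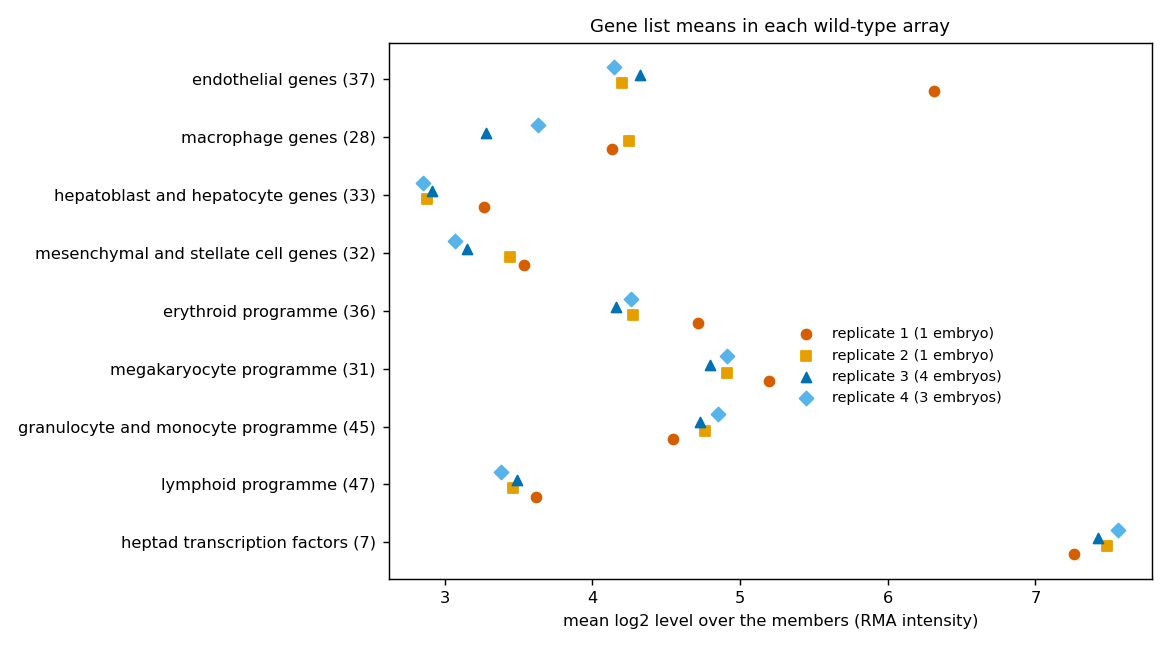
Mean log2 level over the members of 9 gene lists (rows, number measured in brackets) on each wild-type array (coloured symbols). Replicate 1 lies apart in the endothelial list at 6.31 against 4.14 to 4.32, and the heptad factors lie between 7.26 and 7.56 on all arrays.

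The labelled difference within the group is the number of embryos, so the 2 pooled arrays were compared with the 2 single-embryo arrays by limma over all 12393 genes. A single gene passed, 0.00807% of those tested. Xist, the RNA that coats the inactive X chromosome of females, had levels of 4.49, 4.47, 10.72 and 10.13 in replicates 1 to 4. Both pooled arrays were high and both single-embryo arrays lay just under the reference level (pooled minus single 5.95, SE 0.27; limma, Benjamini-Hochberg adjusted p = 0.000781; higher in 2 of 2 pooled arrays). The other Xist probe sets had the same order, at 2.24, 2.08, 5.86 and 6.46 and at 2.74, 2.69, 6.80 and 6.66. The Y-linked genes Eif2s3y, with levels of 6.44, 6.97, 4.71 and 6.30, and Kdm5d, with 5.47, 5.84, 3.61 and 5.39, were lowest in replicate 3. They differed by -1.20 (SE 0.49) and -1.15 (SE 0.52) and did not pass (limma, adjusted p = 0.585 and 0.608). Uty had levels of 3.09, 4.25, 2.51 and 4.20, and Sry, Usp9y, Zfy2 and the Xist antisense gene Tsix were below the reference level on every array.

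Genes next in order did not pass. Wdfy1, an endosomal adaptor, had levels of 3.44, 3.62, 6.19 and 6.81 (2.97, SE 0.28; limma, adjusted p = 0.0637), while its other probe sets averaged 3.76 and 3.61 and did not separate the arrays. 6820431F20Rik differed by -2.17 (limma, adjusted p = 0.0777), Igf2r by -1.92 (adjusted p = 0.169) and Airn, the noncoding RNA that lies antisense to Igf2r, by -1.83 (adjusted p = 0.281). Kit differed by 0.90 (SE 0.30), with both pooled arrays above both single ones and no call (limma, adjusted p = 0.509). The other Kit probe set read 3.10, 3.12, 2.53 and 3.85, below the reference level, and did not separate the groups. Over all genes, 1046 had an unadjusted p under 0.05. The pooled arrays lay wholly above the single ones for 2239 genes (18.1%) and wholly below for 2686 (21.7%). An exact permutation test of 1 gene cannot go below 0.333 with 6 assignments. Embryo number, Xist and the 3' minus 5' signals of actin and Gapdh split the arrays the same way. So did the macrophage and mesenchymal list means, and none of these can be told apart. Embryo sex is not in the labels, so a different mix of females and males cannot be told apart from embryo number either. Without replicate 3 or 4 the adjusted p of Xist was 0.126 or 0.0819 and 0 genes passed, and without replicate 2 there were 180.

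**Figure D5:**
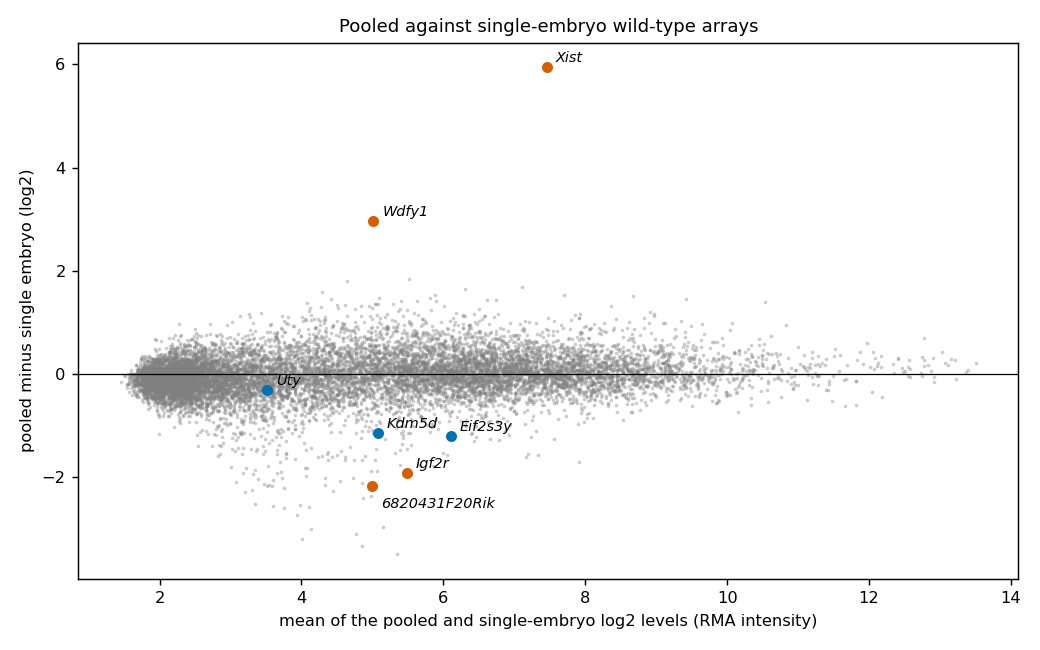
Pooled minus single-embryo difference in log2 level (vertical axis) against the mean of both groups' levels (horizontal axis) for 12393 genes, with 2 arrays in each group. Xist stands alone at 5.95; the Y-linked genes Eif2s3y, Kdm5d and Uty are blue, and Wdfy1, Igf2r and 6820431F20Rik, orange like Xist, did not pass the test.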

How the data were processed

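Per the submitters' processing notes, the authors used RMA and Affymetrix Expression Console, whose versions were not stated there. They deposited 1 intensity value per probe set and array. RMA removes background, makes the distributions of the arrays alike and gives each probe set a value whether or not it is transcribed, which compresses differences at low signal. The intensities were on a linear scale, and log2 was taken with no pseudocount. Of 22690 probe sets, 64 controls were left out; of the other 22626, 20380 named 1 gene, 691 several and 1555 none, per the platform annotation. Symbols were updated through Entrez identifiers to RefSeq (GRCm38.p6), which 12369 of 12393 genes matched. Only probe sets naming 1 gene were used, and each gene was represented by its probe set of highest mean over the 4 arrays. For 4956 genes with more than 1 probe set, the brightest and dimmest differed by a median of 1.57; of the 3114 whose brightest exceeded the mean reference level, 63.2% had a dimmest at or below it. Detection calls and scan dates were not used here, so batches were not tested.

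Pooled and single-embryo arrays were compared by limma 3.58.1 (lmFit, eBayes; R 4.3.3), Benjamini-Hochberg adjusted over all genes with a threshold of 0.05, on a script tested on simulated data; tables and plots used Python 3.11.15, pandas 2.3.3 and matplotlib 3.10.9. The p-values set the difference between the groups against the spread of arrays within them, with variance moderated over genes. Samples of 1 embryo and pools of several were given the same variance. Of the measured genes, 79.7% had a RefSeq promoter, under the 80% required, so that check is void over all measured genes, whose shares are given only beside those of sets with 80% or more; a gene held a motif if at least 1 of its promoters did. TATAAA was planned, and the other motifs were chosen after seeing the data. The members and the 29 gene lists were chosen with earlier results of these data known. Genes were named by rule: 25 of highest level, 12 of largest SD, all members of lists up to 12, otherwise the 6 brightest, 3 dimmest and 2 of largest SD, the smallest p of the comparison, and X-inactivation and Y-linked genes. Others were chosen after their values were seen. Alternatives were the choice of probe set, normalization, pseudocount, reference level, filter, moderation and leaving out each array.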

Additional observations from a re-analysis of the deposited data

Results flagged for a closer look

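A value was singled out where 1 of the 4 arrays lay far from the other 3 by Dixon's criterion (the gap to the nearest array as a share of the range), which chance meets in about 1 of 20 groups of 4. Over all genes 769 met it (6.21%), with replicate 1 the array apart in 281, replicate 2 in 115, replicate 3 in 244 and replicate 4 in 129. Among the 296 genes chosen by the naming rule 28 met it (9.46%). That rule picked some genes by their SD over the same 4 arrays, so this share cannot be set against that of all genes. Of the 29 list means 3 met it: the endothelial mean in replicate 1 (6.31), the hepatoblast and hepatocyte mean in replicate 1 (3.27) and the mean of genes of tissues outside blood and liver in replicate 4 (2.55).

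Replicate 1 was high in Lyve1 (9.73), Mrc1 (9.03), Fabp4 (8.51), Plpp3 (7.86), Cd36 (7.29), Bmp2 (7.26), Stab2 (6.99), Aplnr (6.94), Cdh5 (6.53), Clec1b (6.39) and Sox17 (6.13), most of them genes of endothelium. It was also high in Mest (8.97), the inhibitor of differentiation Id3 (6.98), Asb4 (4.63), Lifr (4.58) and Zim1 (2.11), of which Lifr and Zim1 were below the reference level on every array. It was low in Pcna (10.975 against 11.32 to 11.33) and in Krt18 (5.81).

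Replicate 4 was apart in Cdt1 (9.59), in the ribosomal protein genes Rpl37a (12.83) and Rpsa (12.99), and in the dim genes Cd3d (2.09), Tsix (1.71) and Hoxd10 (1.50). Replicate 3 was apart in Rps14 (12.66), Suz12 (8.52) and Pcgf2 (2.79), and replicate 2 in Cela1 (5.20). The part of endothelial RNA, RNA quality and embryo number in these values was not tested.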

How the results depend on the processing

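The count of genes above the reference level on all arrays, 5303, ranged from 4803 (probe set of largest interquartile range) to 6028 (90th percentile), and from 5331 to 5488 with each replicate left out. A lower reference level or fewer arrays to pass can only raise this count or leave it as it is. The 137 genes with an SD over 1 became 83 with the mean over all probe sets of a gene, and 37 (without replicate 1) to 187 (without replicate 4) with a replicate left out. In the pooled against single-embryo comparison, 1 gene passed; there were 4 with the filter on low values, 5 with trend and robust settings, 2 after quantile normalization and 3 at a threshold of 0.1, and 0 (without replicate 3 or 4) to 180 (without replicate 2) with a replicate left out, where the lone array of a group is assumed to vary like the others; the cause was not tested. The difference of Xist stayed between 5.65 and 6.24. Of 214 median or single ranks under alternatives, 174 moved by less than 1 SD over the arrays and 40 by more. Quantile normalization and the pseudocount keep the order of probe sets within an array, so ranks could hardly move under them. Leaving out 1 of 4 arrays cannot move the mean rank of a single gene by 1 SD. The 174 are therefore no measure of stability. The largest moves came from the choice of probe set: with the one of largest interquartile range Hoxa9 went from 95.9% to 77.1% and Slamf1 from 72.6% to 57.3%, and with the mean over probe sets Kit went from 92.1% to 74.5%, Slamf1 to 57.8%, the sort markers from 82.4% to 66.1% and the fetal programme from 79.8% to 65.4%. Pooled minus single differences were recomputed for Xist, Wdfy1, 6820431F20Rik and Igf2r, taken from the genes of smallest p in that comparison. In these 4 the pooled and single-embryo arrays did not overlap, so leaving out an array could not change the sign. The filter and the moderation settings do not alter the difference. No sign changed under the remaining alternatives run either. The dimmer Fli1 probe set had the opposite order to the one used. No paired analysis was possible because only 1 genotype is described and its replicate numbers pair no samples. Levels near the reference level cannot be told from signal without transcription, and 4 arrays give wide errors.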

Other observations

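Enzymes of DNA methylation and Polycomb repression, which keep genes silent through cell division, were mostly above the reference level: 21 of 27 measured on all 4 arrays, against 42.8% of all genes, with a median rank of 79.2%. The de novo methyltransferase Dnmt3b had levels of 9.96, 10.33, 10.35 and 10.18, Dnmt3a 7.21, 7.68, 7.11 and 7.50, and the maintenance enzyme Dnmt1 9.78, 9.84, 9.42 and 9.45; their cofactor Dnmt3l averaged 2.28. All core parts of Polycomb complex PRC2 measured, Ezh2 at 8.48, Suz12 at 8.84 and Eed at 8.31, with the histone binders Rbbp4 at 10.66 and Rbbp7 at 11.17, exceeded the reference level on every array. In PRC1, Rnf2 at 8.19, Bmi1 at 7.50 and Pcgf6 at 6.87 did so, and Ring1 at 4.36, Cbx7 at 2.72, Cbx8 at 3.31 and Pcgf2 at 2.53 lay below it on every array.

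Homing and adhesion genes were above the reference level on all arrays in 14 of 28 cases, near the 42.8% of all genes, with a median rank of 57.4%. Cd47, which protects cells from phagocytosis, had levels of 9.51, 9.86, 9.45 and 9.54, and the sialomucin Cd164 8.56, 8.89, 8.86 and 9.07. Cxcr4, the receptor that guides stem cells to Cxcl12, had levels of 4.35, 4.75, 4.86 and 5.40, and the integrin subunit Itga4 4.34, 4.60, 4.54 and 4.71, both around the reference level. In the BCL2 family 5 of 14 (35.7%) were above it on all arrays, also near that share. The survival factor Mcl1 had levels of 8.83, 8.69, 8.39 and 8.74 and Bcl2l1 averaged 5.88, while Bcl2 itself averaged 3.56 and the p53 targets Bbc3 and Pmaip1 3.08 and 1.65, below it on every array. Bcl2l11, which encodes the death inducer BIM, had levels of 6.02, 5.12, 3.30 and 4.50.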
